A study of Mus musculus with 6 samples.

Results

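The genes described here were Foxo1 and Foxo3, the insulin receptor substrate gene Irs2, and 6 further FOXO target genes of T cells: Klf2, S1pr1, Ccr7, Il7r, Cdkn1b and Pik3ip1. They were selected by gene symbol, 9 of the 32285 rows of the count table, and all 9 passed the filter on low counts. The selection was made with this comparison already known, so their differences between groups are given as a description, with no p-value, and the counts of calls below support nothing about them. Bulk RNA-seq was performed on CD4+CD25+ regulatory T cells (Tregs) sorted from the spleen of C57BL/6 mice, with 3 libraries from WT and 3 from KO animals. KO mice carried ERCre with Zfp335 fl/fl, in which Cre fused to a modified estrogen receptor removes the floxed Zfp335 gene once tamoxifen is given. ERCre is not restricted to Tregs, and the sort used no Foxp3 reporter. Control animals are wild-type littermates in the labels, which leave tamoxifen out, whereas the methods name tamoxifen-treated ERCre mice. Per the methods, tamoxifen in corn oil (10 mg/mL, 100 μL each time) was given 3 times within 5 days to animals 6 weeks old, and cells were collected on day 7.

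FOXO transcription factors act in quiescent lymphocytes. Signals through insulin, growth factor, antigen and cytokine receptors activate PI3K and then AKT, which phosphorylates FOXO proteins and keeps them out of the nucleus. When PI3K signaling is low, FOXO factors enter the nucleus and switch on genes for homing, survival and cell cycle arrest. In Tregs, FOXO1 and FOXO3 are known to be needed for Foxp3 and Ctla4 expression and for suppressive function. Irs2 is both an adaptor that links the insulin and IGF-1 receptors to PI3K and a target of FOXO factors in insulin-sensitive tissues.

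The promoters are shown because FOXO factors bind short DNA motifs, and these windows tell which of the genes carried such letters next to the transcription start. RefSeq promoter sequences (GRCm38.p6) were matched for 7 of the 9 genes, with none printed for S1pr1 and Ccr7. The 250 bases before the start were searched on both strands for GTAAACA, the FOXO binding element, for CAAAACA, the insulin response element, and for TAAACA, the forkhead core that GTAAACA contains. Capitals mark the matches, which in both windows lay on the other strand. Irs2 held CAAAACA starting 37 bases before its start (chr8:11008930-11009179, minus strand), and Cdkn1b held TAAACA starting 17 bases before its start (chr6:134920151-134920400, plus strand).
Irs2: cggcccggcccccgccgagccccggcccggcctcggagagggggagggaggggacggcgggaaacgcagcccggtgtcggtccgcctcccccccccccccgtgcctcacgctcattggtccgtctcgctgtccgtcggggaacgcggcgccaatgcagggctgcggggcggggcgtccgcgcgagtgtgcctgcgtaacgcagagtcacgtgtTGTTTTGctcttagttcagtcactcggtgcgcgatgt
Cdkn1b: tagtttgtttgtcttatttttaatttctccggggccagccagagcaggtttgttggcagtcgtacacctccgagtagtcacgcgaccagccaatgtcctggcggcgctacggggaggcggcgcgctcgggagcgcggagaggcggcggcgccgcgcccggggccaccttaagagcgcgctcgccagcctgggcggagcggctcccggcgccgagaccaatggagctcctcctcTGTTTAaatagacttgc
Over 32851 promoters of the same length, GTAAACA was found in 3.17%, CAAAACA in 5.56% and TAAACA in 12%. The start used for Irs2 lies upstream of the GENCODE gene position given below, and the windows of Pik3ip1 and Il7r lie inside their GENCODE positions. Those of Klf2 and Foxo3 run partly into theirs, as does the last base of the Foxo1 window, so these windows depend on the annotation. The other 5 matched genes held none of the 3 motifs in this window, and none of the 7 held GTAAACA.

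Depth was between 133283969 and 209041812 counts per library, and values below are CPM, counts relative to the TMM-scaled library size. Zfp335 was at 124, 121 and 115 CPM in the WT libraries and at 15.0, 14.3 and 15.1 CPM in the KO libraries, lower in KO as its label says. Treg and CD4 T cell markers summed to 4673 to 4781 CPM in WT and 4703 to 4784 CPM in KO, with none of the 10 at 0. The similar sums held opposite changes, since 2 of the 10 were called higher, Ctla4 among them, and 3 lower, Foxp3 among them. That is 50% called, against 24.1% of all genes tested. Other cells' markers moved with the groups. All 8 B cell markers fell, from a sum of 55.6 to 60.7 CPM in WT to 24.3 to 26.5 CPM in KO. Of 11 myeloid and dendritic cell markers, 8 fell, from 48.2 to 54.7 CPM to 27.1 to 29.4 CPM. Of 7 red cell markers, 6 fell, from 37.0 to 43.8 CPM to 1.92 to 2.51 CPM. None of the 5 CD8 T and NK cell markers was called, at 18.9 to 20.0 CPM and 18.6 to 20.1 CPM. Xist, the RNA of the inactive X chromosome, was at 0.272 ± 0.132 CPM in WT against 135 ± 10.4 CPM (SD, n = 3) in KO, while Y-linked genes were detected in all 6 libraries. Of these, Ddx3y was at 0.766-fold, Kdm5d at 0.826-fold and Uty at 0.687-fold of WT in KO, all called lower, and Eif2s3y at 1.01-fold, not called. Whether KO libraries pooled animals of both sexes is not given in the sources used here. In bulk RNA, fewer cells of a type and less RNA per cell cannot be told apart. The sex of the animals and the deletion cannot be told apart in this design, and the part of the other cell types in the differences below was not tested.

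Of the 9 genes, 7 were higher in KO, 1 was lower and 1 overlapped between groups. Irs2 and Ccr7 were nearly doubled, at 1.96-fold and 1.88-fold of WT, whereas Foxo1, Foxo3, Klf2, S1pr1 and Cdkn1b were 1.13-fold to 1.18-fold of WT. Il7r was at 0.946-fold and Pik3ip1 at 1.05-fold. In edgeR's quasi-likelihood fit across 17307 genes, the adjusted p was under 0.05 and the level higher in KO for 7 of the 9 genes and for 12.0% of all genes tested. None of the 9 was called lower, against 12.1% of all genes, and 24.1% of all genes were called in either direction. All KO libraries lay above all WT libraries for 7 of the 9 genes and for 19.3% of all genes, and below them for 1 gene, against 19.1%. Since the genes were chosen with these values known, nothing is read from the counts.

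**Figure D1:**
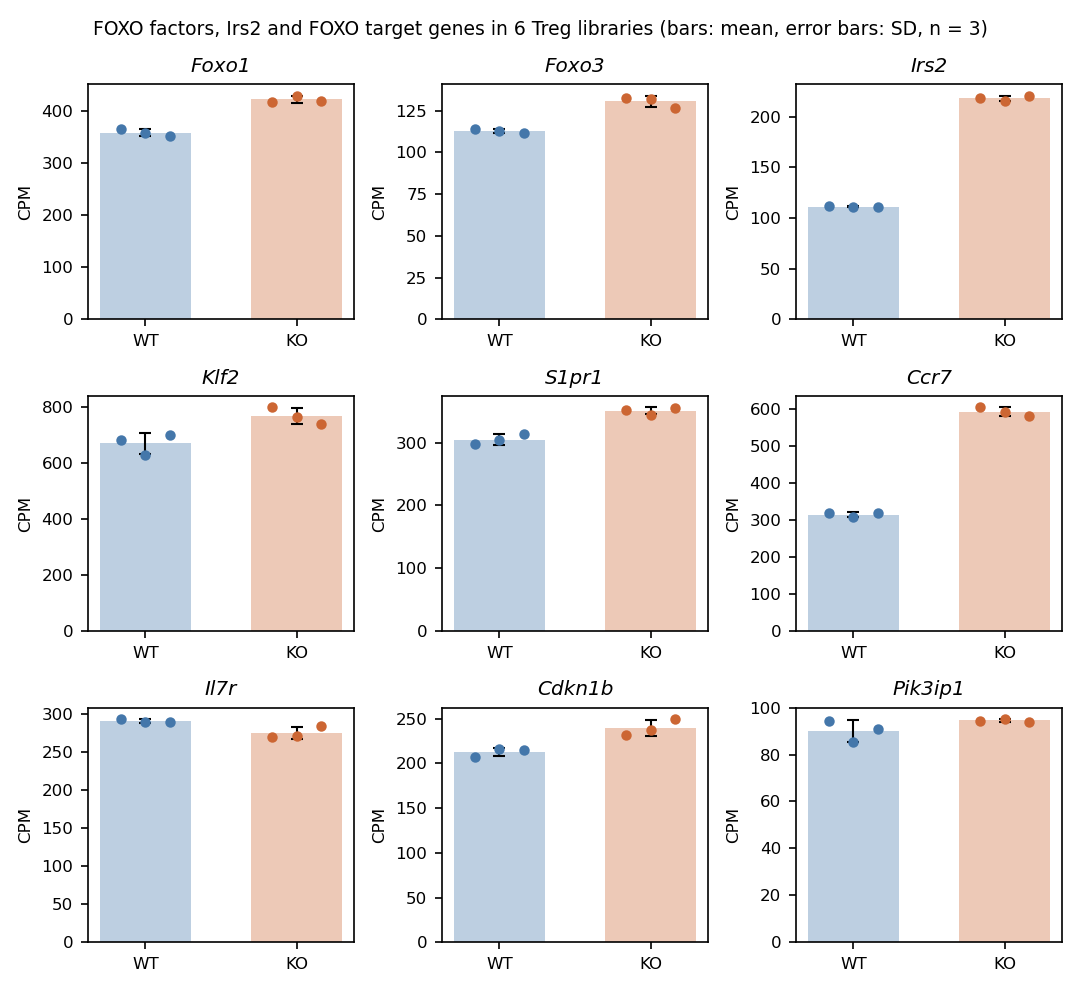
CPM of the 9 genes in the WT (blue) and KO (orange) libraries, with 1 point per library, bars at the mean and error bars showing the SD (n = 3), on axes that start at 0. The gap between groups is wide for Irs2 and Ccr7, narrow but free of overlap for Foxo1, Foxo3, Klf2, S1pr1 and Cdkn1b, turned the other way for Il7r, and absent for Pik3ip1.

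The FOXO factors themselves were modestly higher. Foxo1 was at 364, 357 and 351 CPM in the WT libraries and at 417, 429 and 419 CPM in the KO libraries. The groups did not overlap, with means of 358 ± 6.53 CPM and 422 ± 6.21 CPM (SD, n = 3) and a log2 fold change of 0.24 (standard error, SE, 0.031). Foxo1 (GRCm38 chr3:52268336-52353221, plus strand) is the main FOXO factor of naive T cells and Tregs. The antisense gene Gm20402 overlaps 7.78% of its exon bases, and 14 to 108 counts were assigned to Gm20402 against 47299 to 88946 to Foxo1. Foxo3 (chr10:42181841-42276755, minus strand), whose product shares targets with FOXO1, was at 114, 113 and 112 CPM in WT and at 133, 132 and 127 CPM in KO. Every KO library was again above every WT library, with a log2 fold change of 0.21 (SE 0.034). The third factor expressed in T cells, Foxo4, was not among the 9 genes. It rose from 58.6 ± 1.85 CPM to 66.7 ± 0.950 CPM (SD, n = 3), on the log2 scale 0.19 (SE 0.038, adjusted p by edgeR = 0.0032).

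Irs2 had the largest difference of the 9 genes. It was at 112, 111 and 111 CPM in the WT libraries and at 218, 215 and 221 CPM in the KO libraries. Replicates differed far less than the groups, with means of 111 ± 0.715 CPM and 218 ± 2.65 CPM (SD, n = 3). The log2 fold change was 0.97 (SE 0.031), and 443 of the 17307 genes had a larger one. Irs2 lies at GRCm38 chr8:10984681-11008458 on the minus strand, and the antisense transcript 9530052E02Rik over 2.56% of its exon bases had 0 to 19 counts per library. Over the 6 libraries, the 5 genes whose log2 CPM followed that of Irs2 most closely were Klf4, Ets2, Arid5b, Foxn3 and Vgll4, with Pearson's r between 0.9992 and 0.9996. Correlations of this kind mostly show the difference between the groups, since 185 of 11077 genes had an r over 0.99. Klf4, a quiescence factor of lymphocytes, rose from 91.2 ± 1.23 CPM to 153 ± 0.341 CPM (SD, n = 3), with a log2 fold change of 0.75 (SE 0.032). Ets2, a transcription factor of the ETS family, rose from 115 ± 1.67 CPM to 210 ± 4.12 CPM (SD, n = 3), with a log2 fold change of 0.87 (SE 0.033).

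Among homing and trafficking genes, Ccr7 stood apart from the others in size. Ccr7 (chr11:99144196-99155077, minus strand), the chemokine receptor that guides T cells into lymph nodes, was at 318, 307 and 317 CPM in WT and at 604, 590 and 581 CPM in KO. The log2 fold change was 0.91 (SE 0.032). Klf2 (chr8:72319033-72321656, plus strand), a transcription factor that FOXO1 induces and that activates S1pr1, was at 684, 629 and 701 CPM in WT and at 801, 766 and 741 CPM in KO. Its replicates spread most among the 9 genes, but the highest WT library stayed below the lowest KO library, and the log2 fold change was 0.20 (SE 0.043). S1pr1 (chr3:115710433-115715072, minus strand), the sphingosine 1-phosphate receptor that lets T cells leave lymphoid organs, was at 297, 304 and 313 CPM in WT and at 353, 344 and 355 CPM in KO. Groups did not overlap here either, and the log2 fold change of S1pr1 was 0.20 (SE 0.033).

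Il7r, the IL-7 receptor α chain that FOXO1 is known to induce in naive T cells, did not share the direction of the others. It was at 294, 290 and 290 CPM in the WT libraries and at 271, 272 and 284 CPM in the KO libraries. Each KO library was below each WT library, but the distance between the nearest libraries was small, with means of 292 ± 2.52 CPM and 276 ± 7.44 CPM (SD, n = 3). The log2 fold change of Il7r (chr15:9505788-9530176, minus strand) was -0.081 (SE 0.032). Cdkn1b (chr6:134920401-134925513, plus strand), which encodes the cell cycle inhibitor p27, was at 207, 216 and 215 CPM in WT and at 232, 237 and 250 CPM in KO. Its groups did not overlap, with a log2 fold change of 0.17 (SE 0.036). Pik3ip1 (chr11:3330401-3342971, plus strand), a membrane protein that restrains PI3K, was at 94.3, 85.2 and 90.8 CPM in WT and at 94.2, 95.3 and 94.0 CPM in KO. One WT library reached the KO level, so the groups overlapped, and the log2 fold change was 0.069 (SE 0.041). The antisense transcript Gm12592 overlaps 2.13% of the Pik3ip1 exon bases and had 187 to 342 counts per library, against 12214 to 19754 for Pik3ip1. Whether the counting used strand is not given in the sources used here.

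**Figure D2:**
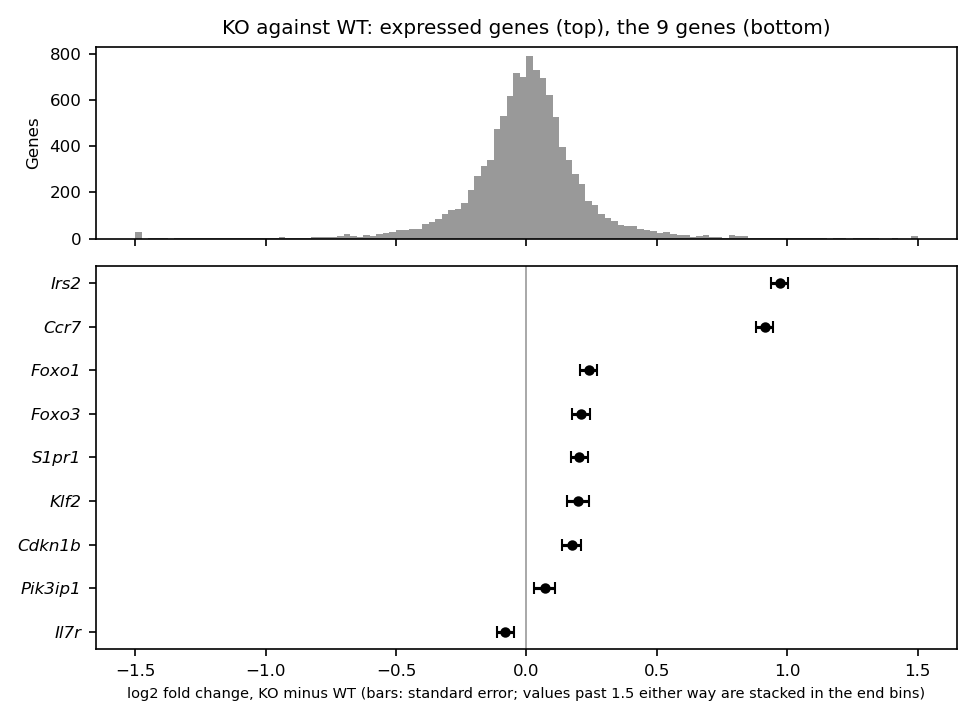
Log2 fold changes, KO minus WT, of the 9 genes with their standard errors (bottom), on the same axis as a histogram of 11078 genes whose average log2 CPM was 1 or more (top, values beyond 1.5 stacked in the end bins). Irs2 (0.97) and Ccr7 (0.91) lie in the right tail, 5 genes lie between 0.17 and 0.24, and Pik3ip1 and Il7r lie near 0.

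Because CPM depends on transcript length, levels were compared between genes per kilobase of exon, scaled to the same sum in every library. Klf2 was the most abundant of the 9 on this scale, at 1257 ± 62.1 in WT and 1427 ± 48.2 in KO (SD, n = 3). It was followed in WT by Ccr7 at 549, S1pr1 at 346, Il7r at 216, Cdkn1b at 162, Foxo1 at 143, Pik3ip1 at 73.0, Irs2 at 61.0 and Foxo3 at 51.7. No neighbours in this order overlapped among the WT libraries. In KO, Irs2 at 118 ± 1.51 passed Pik3ip1 at 75.8 ± 0.841 (SD, n = 3), and the order was otherwise the same. That exchange depends on the length used, since with the longest transcript of each gene in place of all its exon bases KO Irs2 was at 89.0 and Pik3ip1 at 94.7, and the WT order was the same as before. Ccr7 reached 1024 in KO and came closer to Klf2 than in WT.

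**Figure D3:**
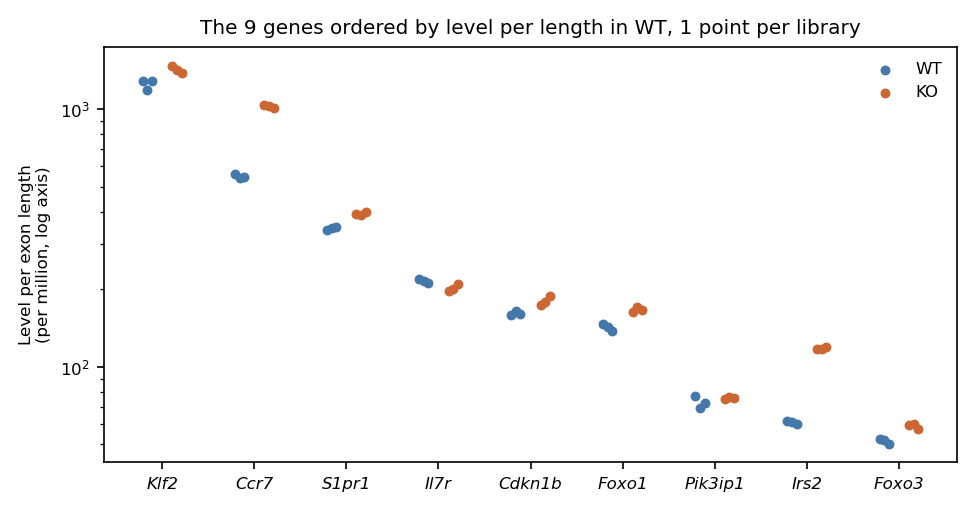
Level per exon length, scaled to the same sum in every library and on a log axis, for the 9 genes in the order of their WT levels, with 1 point per WT (blue) or KO (orange) library. Klf2 is highest and Foxo3 lowest in WT, and Irs2 passes Pik3ip1 in KO on this length, but not with the longest transcript (89.0 against 94.7).

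Beside the 9 genes, 4 lists of other genes that FOXO factors are known to regulate were counted. These lists and those below were chosen with earlier results of these data known, so their counts are a description. Of the 49 tested genes of these lists, 22 rose, 7 fell and 20 were not called, with a median log2 fold change of 0.11, against -0.0042 over all genes tested. This is 44.9% higher and 14.3% lower, and among listed genes whose average log2 CPM was 1 or more it was 21 higher and 6 lower of 43. All genes at that level were higher in 17.0% and lower in 14.8%. Of the 12 cell cycle and survival genes, 8 rose and 1 fell, or 75% called against 24.1% of all genes. Cdkn1a, the p21 inhibitor of cyclin-dependent kinases, rose from 7.93 ± 0.425 CPM to 25.6 ± 0.508 CPM (SD, n = 3), a log2 fold change of 1.69 (SE 0.059). Gadd45b, a stress response gene, rose from 139 ± 5.26 to 214 ± 6.16 CPM (SD, n = 3). The proapoptotic Bcl2l11, a well-known FOXO3 target, was at 109 ± 5.17 and 114 ± 1.89 CPM (SD, n = 3) and was not called (adjusted p by edgeR = 0.20). Several of the listed genes, Cdkn1a, Bbc3, Gadd45a and Sesn1, are also p53 targets. Leaving out these 4, a choice made after their values were seen, gave 19 higher and 7 lower of 45. Sesn1 was itself not called, and the part of p53 in these lists was not tested.

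Of 15 tested stress defence and autophagy genes, 7 rose and 1 fell, or 53.3% called against 24.1% of all genes. The autophagy genes Gabarapl1, Ulk1 and Map1lc3b rose with log2 fold changes of 0.53, 0.40 and 0.36 (SEs 0.055, 0.044 and 0.030). Txnip, which binds thioredoxin and restrains glucose uptake, rose from 681 ± 15.6 CPM to 860 ± 10.5 CPM (SD, n = 3), whereas the catalase gene Cat fell from 82.8 ± 6.59 to 65.4 ± 0.113 CPM (SD, n = 3). In the list of metabolism and insulin feedback, 2 of 10 rose and none fell, or 20% called against 24.1% of all genes. Trib1, a pseudokinase, rose from 172 ± 2.82 to 242 ± 5.86 CPM (SD, n = 3). The other FOXO targets of T cells were split, with 5 of 12 higher and 5 lower, or 83.3% called. Ctla4, the inhibitory receptor of Tregs, rose from 410 ± 9.03 CPM to 645 ± 8.93 CPM (SD, n = 3), a log2 fold change of 0.65 (SE 0.032). Bach2, a repressor of effector programs, rose from 125 ± 4.14 to 147 ± 3.61 CPM (SD, n = 3). Foxp3 was at 1136 ± 17.4 and 1052 ± 9.24 CPM (SD, n = 3), a log2 fold change of -0.11 (SE 0.030, adjusted p by edgeR = 0.016), and this call was lost without any single KO library (adjusted p between 0.051 and 0.092).

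**Figure D4:**
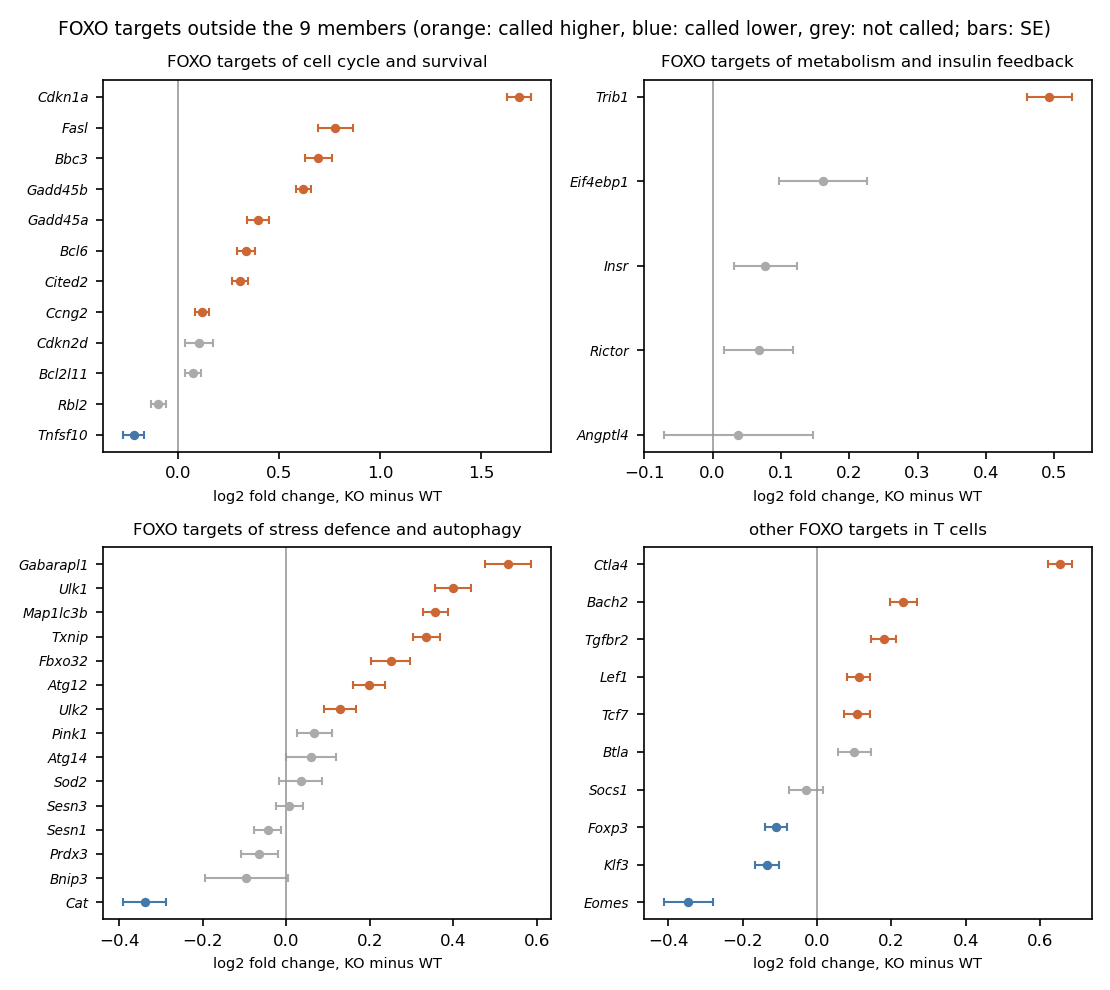
Log2 fold changes, KO minus WT, with standard errors, for the FOXO targets reported here outside the 9 genes whose average log2 CPM was 1 or more, in 4 lists whose axes differ in range. Orange marks genes called higher, blue genes called lower and grey genes not called. Most called genes lie right of 0 in the cell cycle and stress lists, and the T cell list is split.

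Genes upstream of FOXO, pooled with the FOXO family and its modifiers, were called about as often as all genes. The lists within this pool differed, from 7.14% called for receptors and adaptors to 52.4% for the FOXO family and its modifiers. Over 79 tested genes for insulin receptors and adaptors, PI3K, its inhibitors, AKT and the FOXO modifiers, 12 rose and 10 fell, with a median log2 fold change of 0.048, which is 15.2% higher and 12.7% lower against 12.0% and 12.1% of all genes tested. That count of 22 was 14 without KO replicate 2 and 30 without WT replicate 1. Irs1, the other widely studied IRS gene, was far less abundant than Irs2, at 0.196 ± 0.0203 CPM in WT against 0.120 ± 0.0395 CPM (SD, n = 3) in KO. The insulin receptor gene Insr was at 34.4 ± 0.513 and 36.2 ± 1.73 CPM (SD, n = 3), and was not called (adjusted p by edgeR = 0.27). Of 14 receptor and adaptor genes, 1 rose and none fell, so 7.14% were called against 24.1% of all genes. Of 13 PI3K genes, none rose and 2 fell, the latter 15.4% against 12.1% of all genes. Pik3cd, the p110δ catalytic subunit of lymphocytes, was at 924 ± 57.1 and 929 ± 7.03 CPM (SD, n = 3), and Pik3r1, the p85α regulatory subunit, at 241 ± 3.69 and 236 ± 3.83 CPM. The B cell adaptor gene Pik3ap1, which fell from 8.80 ± 0.460 to 6.45 ± 0.158 CPM (SD, n = 3), fell together with the B cell markers given above.

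Of 12 genes that restrain PI3K or AKT, 1 rose and 2 fell, or 25.0% called against 24.1% of all genes. Ddit4, an inhibitor of mTORC1, fell from 186 ± 15.0 to 144 ± 2.44 CPM (SD, n = 3). Among 19 AKT, SGK and mTOR genes, 4 rose and 1 fell, or 26.3% called. Akt1 was at 188 ± 7.07 and 194 ± 7.78 CPM and Akt2 at 219 ± 9.98 and 234 ± 1.22 CPM (SD, n = 3), with adjusted p by edgeR of 0.43 and 0.081. Sgk1, a kinase that can also phosphorylate FOXO factors, rose from 59.1 ± 4.64 to 75.2 ± 2.27 CPM (SD, n = 3), a log2 fold change of 0.35 (SE 0.052). Of 21 genes for the FOXO family and its modifiers, 6 rose and 5 fell, or 52.4% called. Singled out after these values were seen, the 14-3-3 genes, whose proteins hold phosphorylated FOXO factors in the cytoplasm, numbered 7 on the list. They made up all 5 that fell, Sfn was at a log2 fold change of 0.061 and not called, and Ywhaz rose from 333 ± 8.66 to 414 ± 9.59 CPM (SD, n = 3). The deacetylase gene Sirt1 rose from 41.0 ± 1.36 to 54.9 ± 0.436 CPM (SD, n = 3).

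**Figure D5:**
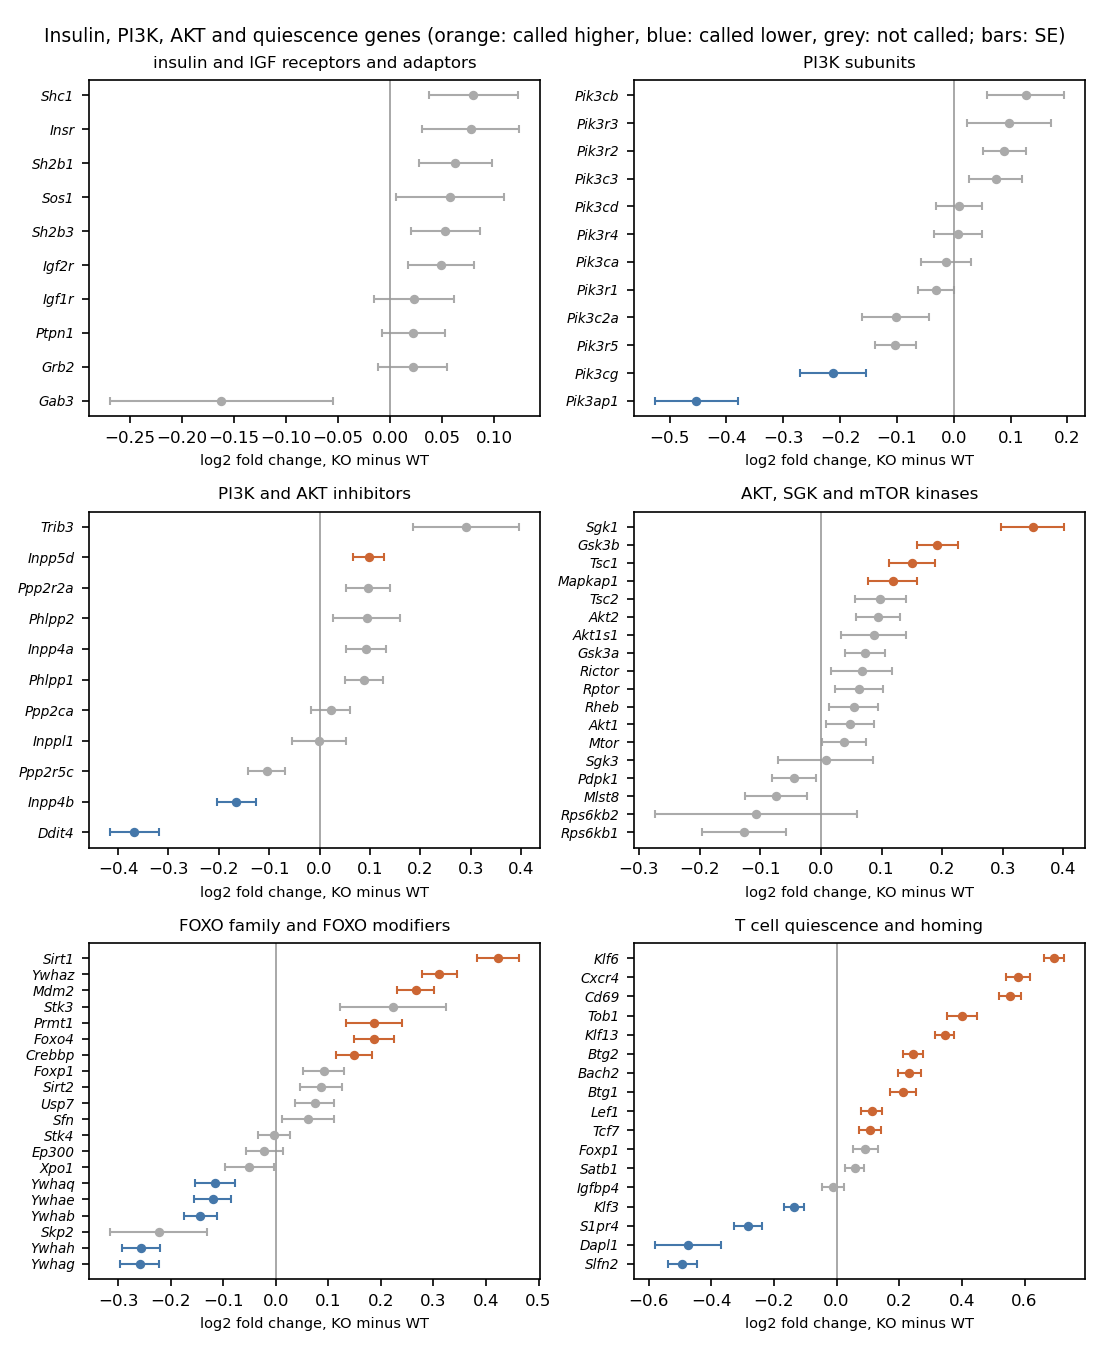
Log2 fold changes, KO minus WT, with standard errors, for the genes reported here of insulin, PI3K and AKT signaling, the FOXO family and its modifiers, and T cell quiescence and homing, whose average log2 CPM was 1 or more. Orange marks genes called higher, blue genes called lower and grey genes not called, and axes differ in range. Receptors, adaptors and PI3K subunits are mostly grey, and the quiescence list is mostly colored.

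The partners of the 9 genes did not follow a single direction. Over 60 tested genes of quiescence, homing and receptor partner lists, 14 rose and 12 fell, with a median log2 fold change of -0.0053. That is 43.3% called, against 24.1% of all genes tested and 31.8% of all genes whose average log2 CPM was 1 or more. That count of 26 was 17 without KO replicate 1 and 33 without WT replicate 1. Of 18 quiescence and homing genes, 10 rose and 5 fell, or 83.3% called. This list overlaps with the FOXO target lists above. Klf6, a Krüppel-like factor, rose from 277 ± 7.87 to 447 ± 5.89 CPM (SD, n = 3), and Cxcr4, a chemokine receptor for bone marrow homing, from 109 ± 4.41 to 163 ± 4.69 CPM. Slfn2, a gene needed for T cell quiescence, fell from 226 ± 16.2 to 160 ± 2.07 CPM (SD, n = 3). Cd69, an early activation gene whose product pulls S1PR1 from the surface, rose from 218 ± 8.22 CPM to 320 ± 5.70 CPM (SD, n = 3), a log2 fold change of 0.55 (SE 0.035). Cd69 and S1pr1 RNA were thus both higher in KO.

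Of 15 tested S1P and CCR7 partner genes, none rose and 3 fell, or 20.0% called against 24.1% of all genes. S1pr4, another sphingosine 1-phosphate receptor of lymphocytes, fell from 219 ± 12.6 to 180 ± 7.33 CPM (SD, n = 3). Of 10 tested IL-7 receptor partners, 2 rose and 1 fell, or 30.0% called. Stat5a and Bcl2, a transducer and a survival target of IL-7 signaling, rose with log2 fold changes of 0.22 and 0.16 (SE 0.031 for both). Il2rg, the common γ chain that pairs with the product of Il7r, was at 684 ± 12.8 and 638 ± 10.4 CPM (SD, n = 3), with adjusted p by edgeR = 0.033, and this call was lost without WT replicate 2 or any single KO library (adjusted p between 0.059 and 0.15). Of 18 p27 partners and cell cycle entry genes, 2 rose and 4 fell, or 33.3% called. Cdkn1a, among those that rose, was also counted with the FOXO targets above. Ccnd2 fell from 447 ± 7.88 to 384 ± 6.80 CPM (SD, n = 3) and Ccnd3 rose from 249 ± 5.18 to 278 ± 3.52 CPM, both D-type cyclin genes. Skp2, part of the ubiquitin ligase that degrades p27, was at 4.87 ± 0.311 and 4.19 ± 0.233 CPM (SD, n = 3), and was not called (adjusted p by edgeR = 0.11).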

How the data were processed

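The authors deposited a table of raw counts by gene symbol, covering 6 libraries and not normalized. TruSeq libraries were made from total RNA. The labels list HISAT2, DESeq2 and mm10 without roles, and the counting tool, annotation and strand setting are not given in the sources used here. Counts were tested with edgeR 4.0.16 in R 4.3.3: TMM scaling (factors 0.987 to 1.014), filterByExpr, the robust quasi-likelihood test and Benjamini-Hochberg adjustment over 17307 genes, called at an adjusted p under 0.05. Standard errors came from the fit. The 9 genes and all gene lists were chosen with earlier results of these data known. Some genes, Cdkn1a, Ctla4 and Foxp3 among them, are shared between lists and were counted in each. Genes named were the 9, a fixed set of pathway genes and, per list, called genes with the largest change and the most abundant genes. Positions and exon lengths came from GENCODE (GRCm38), with lengths for 31424 of 32285 symbols. Alternatives were other scalings and filters, DESeq2 1.42.0, limma-voom 3.58.1, the replicate number as a block, and leaving out each library. The fit was tested on simulated data. The labels do not say how many animals each library holds, so p-values measure the spread between libraries. Some genes of the lists entered the counts but are not reported here by name.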

Additional observations from a re-analysis of the deposited data

How the results depend on the processing

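Over 16 alternatives, none of the 9 genes changed direction. Irs2 stayed between 0.96 and 0.98 on the log2 scale, Ccr7 between 0.90 and 0.93, Il7r between -0.10 and -0.067 and Pik3ip1 between 0.030 and 0.10. Since these genes were chosen with the comparison known, this range is a description. Genes called over the whole table ranged from 2740 to 4996 when 1 library was left out, lowest without WT replicate 2, and were 1203 (446 higher, 757 lower) under a rule that changed the fold and the threshold together, at least 1.5-fold, unadjusted p under 0.05 and adjusted p under 0.1. Left-out libraries gave 22 to 33 called FOXO targets and 17 to 33 called quiescence and partner genes. They gave 14 to 30 called genes of insulin, PI3K and AKT signaling, with the FOXO family and its modifiers included. Signs turned for Pik3cd (-0.0061 with upper-quartile scaling, and -0.028 to 0.057 when 1 library was left out, below 0 without WT replicate 2, at -0.0011, and WT replicate 3) and Stk4 (-0.018 to 0.0072, above 0 without WT replicate 2). Neither was called, and the cause was not tested. Same-numbered libraries did not deviate together (correlations 0.052, -0.0099 and -0.027, with 1 of 6 libraries closest to its own number), so no pairing by number was seen. With 3 libraries per group, these values cannot exclude a pairing. With the replicate number as a block, 4227 genes and 29 FOXO targets were called. Low counts limit genes such as Irs1, and each group had only 3 libraries.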
